A study of Mus musculus with 4 samples.

Results

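The measurements described here are 16 columns of single-cell full-length cDNA counts from mouse oocytes, of 177 columns in the whole series: 4 intact oocytes, 6 pieces of oocytes cut into 2 (1/2 oocytes) and 6 pieces of oocytes cut into 4 (1/4 oocytes). Columns were chosen by their names, which mark the split columns as such, and the 4 oocyte columns without that mark were taken as intact. They held UMIs (molecules counted once by their identifier) on 49271 isoforms, which were summed to 8903 genes by the gene name attached to each isoform. The question asked was which genes and isoforms varied more between parts of oocytes than between intact oocytes, and which stayed constant.

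All oocytes were collected at metaphase II from superovulated, unmated C57BL/6J females (the strain label of the run reads DBA/2J x C57BL/6J), with no other genotype or treatment given for any of the 3 groups. The study cut oocytes to see whether mRNA abundance accounts for the number of isoforms detected per gene. Column names do not say which parts came from the same oocyte, and all 16 columns belong to run 4, so parts may share an oocyte, and every p-value below measures the spread between these columns and may be too small. The cDNA of the columns was pooled before sequencing, so a UMI total does not measure how much RNA an oocyte or a part held. Totals ran from 182596 to 281036 UMIs in intact oocytes, from 129744 to 289774 in 1/2 oocytes and from 137231 to 275297 in 1/4 oocytes.

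The metaphase II oocyte is a large cell that is transcriptionally silent and lives on stored maternal mRNA until the embryonic genome is switched on. Its spindle and chromosomes lie under the cortex at one pole, and mRNAs, mitochondria and maternal protein lattices fill the cytoplasm, so a part of an oocyte may or may not contain a given structure.

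The columns carried the transcriptome of an oocyte. Of 18 oocyte marker genes listed, 17 were detected, and together they took 478 to 529 per 10000 UMIs in intact oocytes, 433 to 516 in 1/2 oocytes and 473 to 518 in 1/4 oocytes. Of 24 markers of cumulus and granulosa cells, the somatic cells around the oocyte, 3 had any UMI: the aromatase gene Cyp19a1 was seen in every column with 4 to 22 UMIs, Amhr2 had 3 UMIs in 1/2 oocyte 2 alone, and Gja1 had 2 UMIs in 1/2 oocyte 2 and 1 in 1/2 oocyte 6. Of 6 blood cell markers listed, 2 had any UMI, the alpha-globin genes Hba-a1 and Hba-a2. The beta-globin genes Hbb-bs and Hbb-bt, Alas2 and Ptprc had none. Alpha-globin UMIs stood out in 1/4 oocyte 1, with 25 of Hba-a1 and 18 of Hba-a2, against at most 3 and 1 in any other column. The epithelial keratin Krt8 had 8 UMIs in 1/4 oocyte 1 and none elsewhere. Pearson correlations of log2 thinned counts across 2698 genes, which are not independent replicates, ran from 0.897 to 0.911 between intact oocytes, from 0.865 to 0.900 between 1/2 oocytes and from 0.847 to 0.907 between 1/4 oocytes. 1/4 oocyte 1 had the lowest median correlation with the other columns (0.856).

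The median spread of genes was wider among parts than among intact oocytes in every class of expression level, while a test over columns, given after these values, did not pass. To put counting error on 1 footing, each column was thinned at random to 129744 UMIs, the total of the shallowest column. The index of dispersion (variance over mean, on average 1 for counting error alone) was taken within each group. It was taken for the 2698 genes with a mean of at least 5 thinned UMIs. Its median was 1.37 among intact oocytes, 1.96 among 1/2 oocytes and 1.87 among 1/4 oocytes. An index over 3 was found for 499 genes (18.5%) in intact oocytes, 738 (27.4%) in 1/2 oocytes and 700 (25.9%) in 1/4 oocytes. Spread beyond counting error, expressed as the excess squared coefficient of variation, was larger in parts (mean of 1/2 oocytes and 1/4 oocytes) than in intact oocytes for 1801 of the 2698 genes (66.8%), and it was larger in both kinds of part for 1268 and smaller in both for 616.

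A variance over 4 values has a lower median than one over 6, and the medians were therefore taken again over 4 columns a group. With each of the 15 choices of 4 1/2 oocytes the median index was between 1.62 and 1.94, and with each of the 15 choices of 4 1/4 oocytes it was between 1.48 and 1.94, all above the 1.37 of the 4 intact oocytes. For each kind of part alone, the share of genes wider than in intact oocytes was 54.6% to 60.0% for 4 1/2 oocytes. It was 52.2% to 61.9% for 4 1/4 oocytes. Over all 6 columns, and by class of expression level, this share ran from 60.0% to 67.7% in 1/2 oocytes. In 1/4 oocytes it ran from 58.9% to 67.2%. The share given above for parts rests on the mean of both kinds, so it is not compared with these. The edgeR estimate of the biological coefficient of variation, which allows for the number of columns, was 18.2% over 4010 genes in intact oocytes, 24.7% in 1/2 oocytes and 24.7% in 1/4 oocytes. By this estimate both kinds of part lay close to each other.

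**Figure D1:**
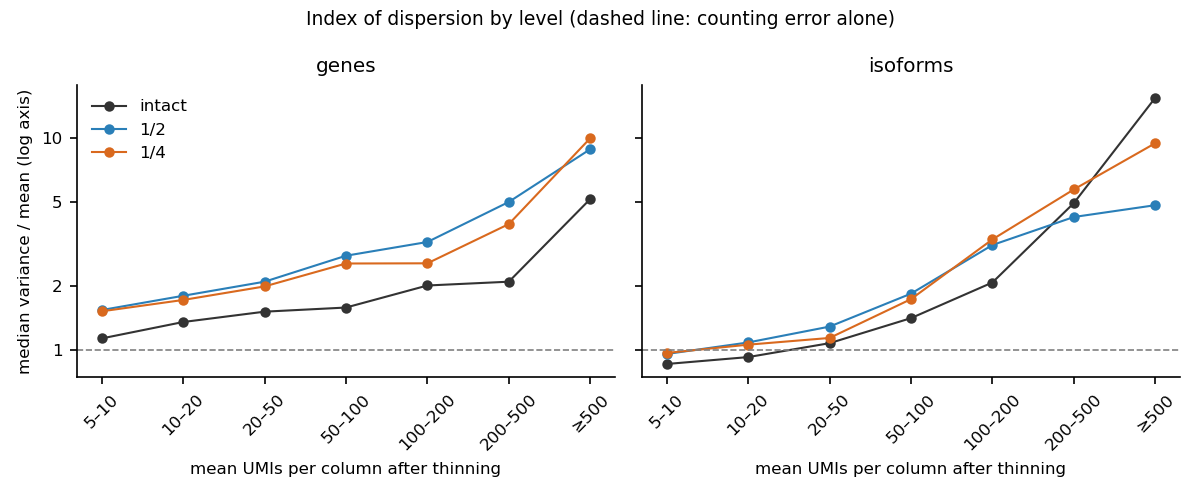
Median index of dispersion (variance over mean of thinned UMIs, log axis) of genes (left) and isoforms (right) in 7 classes of mean UMIs per column, for intact oocytes (black), 1/2 oocytes (blue) and 1/4 oocytes (orange). The dashed line at 1 is counting error alone, and for genes both kinds of part lie above intact oocytes in every class, whereas isoforms lie near the line up to a mean of 50.

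The same comparison was tested over columns rather than genes. For each column the median over genes of its absolute deviation from the mean of its own group was taken on the log2 scale, scaled for the number of columns in the group. It was 0.274 ± 0.0128 (SD, n = 4) in intact oocytes, 0.310 ± 0.0220 in 1/2 oocytes (SD, n = 6) and 0.308 ± 0.0314 in 1/4 oocytes (SD, n = 6). By a two-sided exact permutation test over 210 arrangements, the deviation in 1/2 oocytes gave p = 0.0381 (0.152 adjusted over 4 tests) and that in 1/4 oocytes p = 0.224 (0.432 adjusted), so neither difference passed. Without 1/2 oocyte 3 the comparison of 1/2 oocytes did pass (exact permutation, adjusted p = 0.0317). That column deviated least of the 1/2 oocytes (0.291), so leaving it out raises their mean. Of 200 values of measures per column with 1 column left out, 1 became stronger in this way. The 2 columns that deviated most were 1/2 oocyte 2 and 1/4 oocyte 1 (0.351 and 0.352), while 1/4 oocytes 4 and 5 (0.275 and 0.276) lay within the range of the intact oocytes (0.264 to 0.292).

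Gene by gene, no gene passed a test of wider spread in parts. A limma fit to the absolute deviations of all 2698 genes called 0 genes (0%) more variable in parts than in intact oocytes and 3 genes (0.111%) less variable, all at an adjusted p under 0.05. Taken alone, 1/2 oocytes gave 2 less variable genes (0.0741%, Gkap1 and Ppp1cc) and 1/4 oocytes 1 (0.0371%, Nop10). At an unadjusted p under 0.05 the fit found 95 of the 2698 genes wider and 111 narrower in parts. On simulated counts this test found few genes whose spread in parts had been widened on purpose, so its 0 says little. A fit to the logarithm of the deviations, added because it found more of them, called 0 genes in either direction, with 149 wider and 90 narrower at an unadjusted p under 0.05.

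The genes that were widest in parts were therefore taken by a rule of size, with no test, as the 10 with the largest excess squared coefficient of variation in parts minus intact oocytes among 1210 genes with a mean of at least 20 thinned UMIs. They included Gdi2, Blm, Me1, Baz1a, Itpr2, Washc2, Gatad2a, Ctnnal1 and Vps35. Their roles differ, and they include Blm, a DNA helicase, Gatad2a and Baz1a, which belong to chromatin remodelling complexes, and Vps35, Washc2 and Gdi2, which act in vesicle traffic. The choice rested partly on the draw: 4 of the 10 were chosen again with another random thinning, and 8 of the 10 when full depth was used with the counting variance of each column subtracted. Values below are at full depth, as CPM (UMIs scaled to the same total in every column), and the coefficient of variation (CV) beyond counting error is 0 where columns differed by no more than counting allows.

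Ctnnal1, which encodes a catenin-like protein (chr4:56810935-56865188, mm10), varied by no more than counting error among intact oocytes and widely in parts. Intact oocytes held 297, 312, 327 and 317 CPM, 1/2 oocytes ran from 176 over a median of 243 to 563, and 1/4 oocytes from 160 over 310 to 507. The 4 intact values fell within the range of both kinds of part, with 1/2 oocyte 6 and 1/4 oocyte 1 at the top, and over all genes 65.4% had their 4 intact values within the range of the 12 parts. The CV beyond counting error was 0% in intact oocytes, 44.1% in 1/2 oocytes and 36.7% in 1/4 oocytes.

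Gdi2, a GDP dissociation inhibitor that recycles Rab GTPases (chr13:3538063-3567871), was at 146, 104, 135 and 99.4 CPM in intact oocytes. 1/2 oocytes ran from 6.21 over 153 to 290 and 1/4 oocytes from 88.8 over 181 to 284. 1/2 oocyte 5 had almost no Gdi2, with 1 isoform of the gene seen after thinning, whereas at least 8 were seen in every intact oocyte and every 1/4 oocyte. The CV beyond counting error was 0%, 70.1% and 35.6% in the 3 groups in the same order.

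Gatad2a, a subunit of the NuRD chromatin complex (chr8:69907076-69996384), stood at 222, 225, 217 and 170 CPM in intact oocytes, and at 68.6 to 317 (median 181) in 1/2 oocytes and 94.1 to 306 (median 225) in 1/4 oocytes. 1/4 oocytes fell into a lower and a higher set of values on either side of the intact oocytes. Itpr2, an inositol trisphosphate receptor that releases calcium from the endoplasmic reticulum (chr6:146108299-146502223), was at 93.1, 186, 157 and 185 CPM in intact oocytes, at 66.6 to 310 (median 153) in 1/2 oocytes and at 52.3 to 226 (median 165) in 1/4 oocytes. Its CV beyond counting error was 22.1% in intact oocytes, 54.0% in 1/2 oocytes and 41.0% in 1/4 oocytes.

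**Figure D2:**
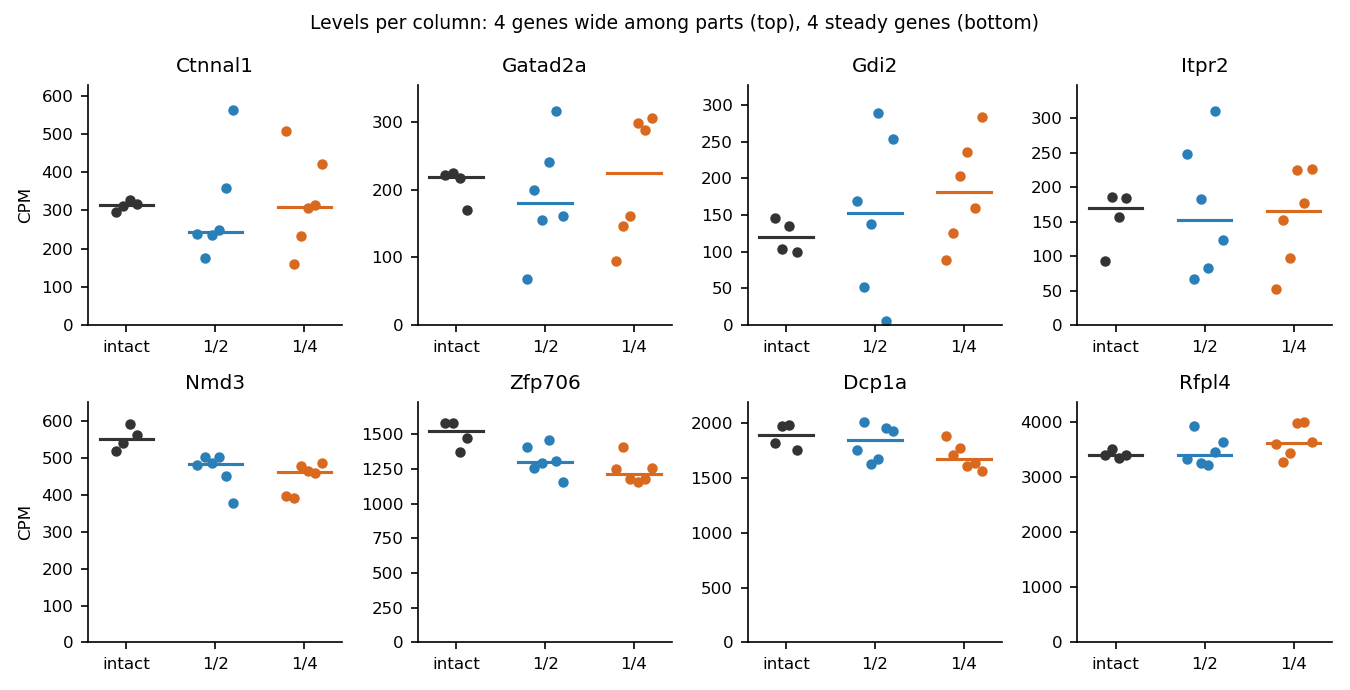
CPM in each column for the 4 genes among the 10 widest in parts that kept this place in both draws and at full depth (top) and for Nmd3, Zfp706, Dcp1a and Rfpl4 (bottom), with 1 point per column and a bar at the group median. In the top row 1/2 oocytes and 1/4 oocytes spread above and below the intact oocytes, which for Itpr2 are spread as well. In the bottom row all 3 groups are compact. Genes of both rows were chosen by their spread, so the contrast between rows is built into the choice. Genes of the bottom row did not have to keep their place in another draw, and Nmd3, Zfp706 and Dcp1a did not.

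In several of the other genes 1 or 2 parts stood above the rest. Blm, the Bloom helicase (chr7:80454733-80535119), was at 168 to 214 CPM in intact oocytes and at 396 in 1/2 oocyte 1, while the other 1/2 oocytes did not exceed 174. Me1, the cytosolic malic enzyme (chr9:86581371-86695953), was at 75.4 to 175 CPM in intact oocytes and at 474 in 1/4 oocyte 6, with the other 1/4 oocytes at 73.1 to 194. Baz1a, a subunit of the ACF and CHRAC remodellers (chr12:54892989-55014348), reached 338 in 1/2 oocyte 2 and 335 in 1/4 oocyte 6 against 76.7 to 153 in intact oocytes. Vps35, the core of the retromer (chr8:85260392-85299802), was the gene of the 10 with the smallest limma p (adjusted p = 0.598), with intact oocytes at 315 to 421, 1/2 oocytes at 108 to 547 and 1/4 oocytes at 220 to 372. Washc2, a subunit of the WASH complex on endosomes, spread most in 1/4 oocytes (43.7 to 275 against 142 to 208 in intact oocytes).

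Genes with a wide spread in 1/2 oocytes tended weakly to be wide in 1/4 oocytes, which share no column with them, and in intact oocytes as well. The 121 genes of 1210 with the largest excess in 1/2 oocytes had a median CV beyond counting error of 19.6% in 1/4 oocytes, against 15.3% over all 1210, and of 15.0% in intact oocytes, against 10.3%. Of these 121 genes, 27 (22.3%) were also among the 121 widest in 1/4 oocytes, where the share over all genes is 121 of 1210. The excess fell with level (in 1/2 oocytes a median of 0.0381 at a mean of 20 to 50 UMIs and 0.00815 at 500 or more). The choice was not matched for level, and what level adds to the overlap was not tested. Spearman's rho of the excess between 1/2 oocytes and 1/4 oocytes was 0.106 across the 1210 genes, a weak relation between estimates that each rest on 6 columns. Between 1/2 oocytes and intact oocytes it was 0.0640.

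In the other direction, 5 genes were wider among intact oocytes by the same rule: Dkc1, Platr30, mt-Nd6, Fnta and Maea. Another thinning chose 2 of the 5 again (mt-Nd6 and Maea), and full depth chose 3 (Platr30, mt-Nd6 and Maea). Dkc1 and Fnta were chosen in neither. Dkc1, the pseudouridine synthase of H/ACA particles (chrX:75095854-75109777), was at 115, 274, 146 and 71.0 CPM in intact oocytes and at 57.1 to 261 in 1/2 oocytes. Platr30, a noncoding RNA (chr3:96345287-96358480), was at 307 in intact oocyte 2 and at 120 to 146 in the other 3. The 3 genes that the limma fit called less variable in parts were Gkap1, Nop10 and Ppp1cc. Nop10, another protein of H/ACA particles (chr2:112261926-112263269), was at 17.7, 16.4, 64.0 and 47.3 CPM in intact oocytes, at 38.5 to 131 in 1/2 oocytes and at 57.7 to 106 in 1/4 oocytes, with a mean deviation lower by 0.76 in parts on the log2 scale (SE 0.11, limma adjusted p = 0.00579). Its lowest values were in intact oocytes, and counting error alone makes log2 deviations larger at lower counts, so level and spread are not told apart for Nop10. Ppp1cc, a catalytic subunit of protein phosphatase 1 (chr5:122158278-122175273), was at 44.3, 137, 117 and 85.2 in intact oocytes, at 93.1 to 124 in 1/2 oocytes and at 46.5 to 110 in 1/4 oocytes (lower by 0.58, SE 0.0856, limma adjusted p = 0.00579). Gkap1, a kinase-anchoring protein of the Golgi, was at 14.2 to 85.4 in intact oocytes, at 43.5 to 79.2 in 1/2 oocytes and at 46.5 to 117 in 1/4 oocytes (limma adjusted p = 0.0205). Another draw of the thinning, full depth without thinning, and leaving out intact oocyte 1, 2, 3 or 4 each ended all 3 calls.

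Constant genes were taken as the 10 with the smallest highest index of dispersion over the 3 groups among 513 genes with a mean of at least 50 thinned UMIs. They were Nmd3, Vta1, Dcp1a, Nup62, Ift43, Pdia6, Zfp706, Mrps36, Smim11 and C2cd5, and their indices in a group ran up to 1.56. This set also moved with the draw, since 2 of the 10 (Ift43 and Pdia6) were chosen again with another thinning. Nmd3, an adaptor that exports the large ribosomal subunit from the nucleus (chr3:69721985-69756373), showed no spread beyond counting error in any group. It was at 519, 542, 594 and 563 CPM in intact oocytes, 378 to 504 (median 484) in 1/2 oocytes and 392 to 488 (median 463) in 1/4 oocytes. Nmd3 was thus compact within each group. All intact oocytes lay above all parts, but the share of all genes with such a separation was not counted. The difference in level did not pass the test (edgeR adjusted p = 0.859 for 1/2 oocytes and 0.695 for 1/4 oocytes), so none is read from it.

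Zfp706, a small zinc finger protein (chr15:36997027-37007773), was at 1578, 1583, 1370 and 1472 CPM in intact oocytes, 1156 to 1455 in 1/2 oocytes and 1151 to 1409 in 1/4 oocytes, with CVs beyond counting error of 3.86%, 4.78% and 3.90%. Dcp1a, a cofactor of mRNA decapping (chr14:30479535-30527063), was at 1818, 1977, 1989 and 1760 in intact oocytes, 1632 to 2012 in 1/2 oocytes and 1567 to 1887 in 1/4 oocytes, with CVs of 3.59%, 6.71% and 4.28%. Pdia6 and Ift43, the pair kept in both draws, encode a disulfide isomerase of the endoplasmic reticulum and a protein of intraflagellar transport. Pdia6 was at 341 to 449 CPM in intact oocytes, 359 to 509 in 1/2 oocytes and 299 to 412 in 1/4 oocytes. Ift43 was at 461 to 576, 352 to 517 and 454 to 539 in the same order.

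Among the 10 genes with the highest level, the 4 mitochondrially encoded genes mt-Co1, mt-Co2, mt-Co3 and mt-Nd1 were joined by the maternal genes C86187, H1foo, Obox2, Pttg1, Slbp and Spin1. H1foo, the oocyte linker histone (chr6:115944938-115950236), was at 8037 to 9355 CPM in intact oocytes, 7635 to 8894 in 1/2 oocytes and 7702 to 8861 in 1/4 oocytes, with CVs beyond counting error of 5.75%, 5.72% and 4.40%. Slbp, which binds the stem-loop of histone mRNAs, had CVs of 6.83%, 8.74% and 5.46%. Spin1, a histone reader that is abundant in oocytes (chr13:51100880-51152546), was wider in parts, with 8645 to 10088 CPM in intact oocytes, 6083 to 11893 in 1/2 oocytes and 7600 to 11200 in 1/4 oocytes. Pttg1, securin, was at 8362 to 9881 in intact oocytes, 7809 to 9805 in 1/2 oocytes and 6434 to 9794 in 1/4 oocytes, with CVs of 6.50%, 7.49% and 14.6%.

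The lists of genes were read beside all genes, as counts. Against 66.8% of all genes, the share of list members wider in parts was 70.0% for the cytoskeleton (7 of 10 measured at a mean of 5), 63.6% for meiotic spindle and checkpoint genes (14 of 22), 60.0% for maternal mRNA storage and decay (6 of 10), 58.8% for oocyte markers (10 of 17), 69.2% for nuclear genes of oxidative phosphorylation (9 of 13), 70.6% for ribosomal proteins (12 of 17) and 57.1% for the stress response (4 of 7). The subcortical maternal complex, a lattice of maternal proteins under the cortex, had 6 of 7 wider (85.7%). Mitochondrially encoded genes had 6 of 13 (46.2%). None of these members was called by the limma fit in either direction.

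Within the lists, the widest in parts were Actr3 (cytoskeleton), Numa1 (spindle), Cnot6l (mRNA decay), Oosp2 (oocyte markers), Cycs (oxidative phosphorylation), Zbed3 (subcortical maternal complex) and Hsp90aa1 (stress). Actr3, a subunit of the Arp2/3 complex that nucleates branched actin, was at 270 to 372 CPM in intact oocytes, 214 to 331 in 1/2 oocytes and 79.8 to 444 in 1/4 oocytes. Numa1, which organizes spindle poles, was at 155 to 225, 143 to 270 and 125 to 279. Cnot6l, the deadenylase of the oocyte CCR4-NOT complex, was at 473 to 687, 348 to 680 and 306 to 643. Aurkc, the meiotic Aurora kinase, was the most constant spindle gene with CVs beyond counting error of 8.60%, 8.20% and 11.4%. Rfpl4, an oocyte RING finger protein, was the most constant oocyte marker, at 3409, 3516, 3352 and 3411 CPM in intact oocytes, 3221 to 3929 in 1/2 oocytes and 3277 to 4010 in 1/4 oocytes.

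Of the genes the study names for their isoforms, Cnot7, a deadenylase, was at 1418 to 1746 CPM in intact oocytes, 1217 to 1832 in 1/2 oocytes and 1224 to 1712 in 1/4 oocytes, and Cfdp1 at 104 to 189, 141 to 185 and 93.2 to 173. Hsp90aa1, an inducible chaperone, was at 174 to 257 in intact oocytes, 139 to 385 in 1/2 oocytes and 73.2 to 279 in 1/4 oocytes, with CVs beyond counting error of 9.63%, 38.0% and 43.8%. Ncl (nucleolin) was low, with 28.4 to 39.9 CPM in intact oocytes, and was not seen in 1 or more columns of each kind of part while others held up to 86.9. Sf3b2, a splicing factor, was at 39.9 to 94.6 in intact oocytes, 86.9 to 254 in 1/2 oocytes and 53.2 to 149 in 1/4 oocytes, and its level did not pass the test in either kind of part (edgeR adjusted p = 0.639 and 0.608). Dnajc3 was at 18.9 to 65.7 in intact oocytes and 0 to 69.0 in 1/2 oocytes, and Srpk1 at 11.0 to 18.9 and 5.28 to 23.1.

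Levels of genes were then compared between groups. In the edgeR quasi-likelihood fit over 4010 genes, 0 genes were higher and 0 lower in 1/2 oocytes than in intact oocytes, in 1/4 oocytes than in intact oocytes, or in 1/4 oocytes than in 1/2 oocytes (0% in each). At an unadjusted p under 0.05 there were 243 genes (6.06%), 314 (7.83%) and 258 (6.43%). DESeq2 called 0, 6 and 2 genes in the same comparisons.

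Isoforms had a lower index of dispersion than genes at low counts, but not throughout at a mean of 100 UMIs or more. An isoform here is a transcript model assigned by the study as a full match to a known transcript (FSM), a partial match (ISM), or a new combination of known (NIC) or new (NNC) splice sites. Among 5117 isoforms with a mean of at least 5 thinned UMIs, the median index of dispersion was 0.933 in intact oocytes, 1.07 in 1/2 oocytes and 1.05 in 1/4 oocytes. Counting error alone gives a mean index of 1 and, with few columns, a median below 1. These medians near 1 can therefore hold some spread beyond it. With 4 columns a group the median was 0.929 to 1.02 for 1/2 oocytes and 0.892 to 1.02 for 1/4 oocytes, a range that includes the intact value. At a mean of 50 to 100 UMIs, where genes had median indices of 1.59, 2.79 and 2.56, isoforms had 1.42, 1.85 and 1.74. The edgeR coefficient of variation over 11965 isoforms was 12.1% in intact oocytes, 14.2% in 1/2 oocytes and 14.1% in 1/4 oocytes.

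A gene can vary more than its isoforms where the isoforms rise and fall together. For 999 genes with at least 5 isoforms at a mean of 1 UMI, the variance of the gene was divided by the summed variances of its isoforms, a ratio of 1 meaning independent isoforms. The median ratio was 1.56 in intact oocytes, 2.31 in 1/2 oocytes and 2.22 in 1/4 oocytes, and it exceeded 1 for 69.5%, 89.9% and 86.7% of the genes. With 4 columns a group it stayed above the intact value in each choice (1.91 to 2.32 for 1/2 oocytes, 1.80 to 2.39 for 1/4 oocytes). No test was run on this ratio.

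The 5 widest in parts by the rule were of Eny2, Nsmce2, Oog1, Serpine2 and Ube2d3, and none of the 5 was chosen again with another thinning. Serpine2 isoform PB.2210.5 (NIC, chr1:79794279-79861297), the 1 that was also chosen at full depth, was at 75.4, 65.7, 60.5 and 85.2 CPM in intact oocytes, 55.9 to 111 in 1/2 oocytes and 26.6 to 153 in 1/4 oocytes. Its 4 intact values lay within the range of the 12 parts, as they did for 62.3% of all isoforms. Wider in intact oocytes were isoforms of Afap1l2, H1foo, Ifitm3, Ubl5 and Zbed3. Another thinning chose those of Afap1l2, Ifitm3 and Ubl5 again, and full depth chose those of Afap1l2 and Ubl5. Ubl5 isoform PB.74746.18 (NIC, chr9:20644296-20646791) was at 174 CPM in intact oocyte 3 and 31.0 to 52.0 in the other 3, while 1/2 oocytes held 105 to 193 and 1/4 oocytes 79.8 to 169. Afap1l2 isoform PB.39850.22 (NIC, chr19:56912360-57001119) was at 142 in intact oocyte 2 and 39.1 to 66.2 in the others, and it was compact in 1/2 oocytes (62.1 to 100) and 1/4 oocytes (72.9 to 87.2).

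The steadiest isoforms by the rule were 2 of H1foo and 1 each of Bpgm, Birc3 and Mob4, each with an index of dispersion of at most 0.444 in any group, below counting error. H1foo isoform PB.63789.300 (NNC, chr6:115944938-115950241) was at 173, 181, 185 and 142 CPM in intact oocytes, 143 to 224 in 1/2 oocytes and 157 to 208 in 1/4 oocytes. Bpgm isoform PB.61513.397 (ISM, chr6:34487288-34505621) was at 239 to 303, 243 to 304 and 211 to 288. These 5 were the lowest of 965 isoforms, and none of them was chosen again in another draw.

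The limma fit over isoforms called 0 of 5117 (0%) more variable and 1 (0.0195%) less variable in parts than in intact oocytes. It was Usp28 isoform PB.75696.69 (ISM, chr9:49025776-49042555), of a deubiquitinase gene, at 35.5, 82.1, 92.5 and 33.1 CPM in intact oocytes, 20.7 to 77.1 in 1/2 oocytes and 41.8 to 80.3 in 1/4 oocytes (lower by 1.03 on the log2 scale, SE 0.13, limma adjusted p = 0.00137). This call was lost without thinning, in another draw and without intact oocyte 3. For 1/4 oocytes alone an isoform of Rnf20 was called as well, making 2 (0.0391%). At an unadjusted p under 0.05 the limma fit found 165 of the 5117 isoforms wider and 284 narrower in parts. With the logarithm of the deviations 246 were wider and 239 narrower. The fit to the logarithm of the deviations called 4 isoforms more variable in parts, of Cep55, Cep57l1, C2cd3 and Mdm2, and 2 less variable, of Usp28 and Mthfsl. In 3 of the 4 the thinned counts of the 4 intact oocytes were tied (6 each for Cep55, 3 each for Cep57l1 and 4 each for Mdm2), while the counts before thinning were not, and nothing is read from these calls.

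Levels of 5 isoforms differed in 1 or more comparisons, 3 of them lower in 1/2 oocytes and 2 lower in 1/4 oocytes. The edgeR fit over 11965 isoforms called 0 higher (0%) and 3 lower (0.0251%) in 1/2 oocytes than in intact oocytes, 0 higher and 2 lower (0.0167%) in 1/4 oocytes than in intact oocytes, and 0 higher and 1 lower (0.00836%) in 1/4 oocytes than in 1/2 oocytes. At an unadjusted p under 0.05 there were 823 (6.88%), 977 (8.17%) and 709 (5.93%) isoforms.

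The isoform named for mt-Nd6 was the one called in 2 comparisons. mt-Nd6 is the only protein gene on the light strand of mitochondrial DNA. Isoform PB.78710.178 was at 133, 334, 132 and 203 CPM in intact oocytes, 103 to 248 (median 217) in 1/2 oocytes and 50.9 to 133 (median 81.5) in 1/4 oocytes. It was 1.24 lower on the log2 scale in 1/4 oocytes than in intact oocytes (SE 0.23, edgeR adjusted p = 0.00445) and 1.26 lower in 1/4 oocytes than in 1/2 oocytes (SE 0.21, edgeR adjusted p = 0.000469), and it differed by 0.02 between 1/2 oocytes and intact oocytes (edgeR adjusted p = 0.996). 1/4 oocyte 2 alone reached the lowest intact oocytes. The transcript model runs over chrM:13979-16188 on the minus strand as 1 exon of 2210 bases, covers 92 bases (17.7%) of the annotated mt-Nd6 gene and lies antisense to the whole of mt-Cytb, so it is for the most part not the coding sequence of mt-Nd6. The other 17 isoforms of mt-Nd6 together were at 13.3 to 148 CPM in intact oocytes, 33.3 to 124 in 1/2 oocytes and 31.1 to 102 in 1/4 oocytes. Without 1/4 oocyte 4 both calls were lost, and without intact oocyte 2 or 4 that against intact oocytes was lost.

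Fam8a1 isoform PB.20044.29 (NNC, chr13:46676049-46678062), of a gene for a membrane protein of the endoplasmic reticulum, was at 421, 356, 324 and 468 CPM in intact oocytes and at 162 to 258 (median 231) in 1/4 oocytes. The difference was 0.77 lower (SE 0.16, edgeR adjusted p = 0.0357). In 1/2 oocytes it was at 262 to 331, where 1/2 oocyte 6 alone reached the intact range, and their own difference from intact oocytes did not pass (0.51 lower, edgeR adjusted p = 0.346). Leaving out any 1/4 oocyte, or intact oocyte 1, 2 or 4, ended the call.

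The 3 isoforms lower in 1/2 oocytes were of Sap30, Cenpu and the noncoding Gm16145. Sap30 isoform PB.71644.1 (FSM, chr8:57482684-57488153), of a subunit of the Sin3 deacetylase complex, was at 1051, 1271, 1249 and 1013 CPM in intact oocytes and at 504 to 1041 (median 556) in 1/2 oocytes, where 4 of 6 lay near the median and 2 were at 904 and 1041, the latter within the intact range (0.75 lower, SE 0.15, edgeR adjusted p = 0.0207). 1/4 oocytes were at 603 to 1064 (median 986), nearer to intact oocytes than 1/2 oocytes were. Cenpu isoform PB.71425.1 (FSM, chr8:46551997-46578753), of a centromere protein, was at 75.4 to 98.6 in intact oocytes, 9.51 to 48.3 in 1/2 oocytes (1.38 lower, SE 0.30, edgeR adjusted p = 0.0379) and 36.4 to 73.1 in 1/4 oocytes. Gm16145 isoform PB.7174.2 (NNC, chr10:63353795-63355215) was at 65.7 to 167 in intact oocytes, 33.3 to 84.8 in 1/2 oocytes (1.30 lower, SE 0.27, edgeR adjusted p = 0.0207) and 42.3 to 120 in 1/4 oocytes. DESeq2 called none of the 5 against intact oocytes, and single columns decided these 3 calls. The Sap30 call ended without intact oocyte 2 or 3 or 1/2 oocyte 1, 3, 5 or 6, the Cenpu call without intact oocyte 2, 3 or 4 or 1/2 oocyte 1, 2, 5 or 6, and the Gm16145 call without intact oocyte 3 or 4 or 1/2 oocyte 1, 2, 4 or 5.

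**Figure D3:**
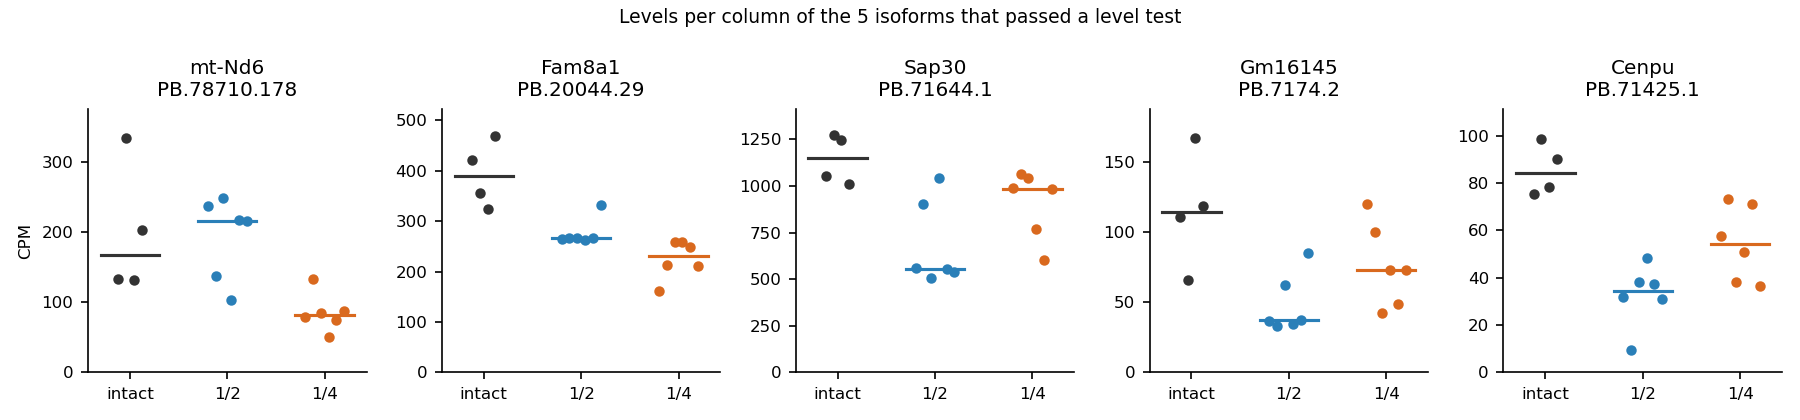
CPM in each column of the 5 isoforms that passed a level test, with 1 point per column and a bar at the group median. The mt-Nd6 isoform is low in 1/4 oocytes (50.9 to 133) and not in 1/2 oocytes, the Fam8a1 isoform steps down from intact oocytes over 1/2 oocytes to 1/4 oocytes, and the Sap30, Gm16145 and Cenpu isoforms are lowest in 1/2 oocytes.

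Isoform diversity per column was compared next, the measure for which the oocytes had been cut. After thinning, columns held 5423 ± 20.1 genes (SD, n = 4) in intact oocytes, 5334 ± 147 in 1/2 oocytes (SD, n = 6) and 5312 ± 105 in 1/4 oocytes (SD, n = 6), and 23433 ± 228, 23787 ± 349 and 23802 ± 375 isoforms. Genes with 2 or more isoforms made up 64.9% ± 0.473, 65.9% ± 0.774 and 65.9% ± 1.14 of the genes seen. Genes with more than 5 isoforms made up 24.7% ± 0.388 in intact oocytes, 26.4% ± 0.948 in 1/2 oocytes and 26.3% ± 0.888 in 1/4 oocytes, a difference of 1.69 and 1.62 percentage points (exact permutation p = 0.0143 and 0.0190, 0.133 after adjustment over 16 tests for both). Every part lay above every intact oocyte in this measure, by a narrow margin (25.18% in intact oocyte 1, the highest, and 25.20% in 1/4 oocyte 5, the lowest part). This order rests on 1 draw of the thinning. The leading isoform took 30.0% ± 1.05 of the UMIs of its gene in intact oocytes, 28.0% ± 1.58 in 1/2 oocytes and 28.3% ± 1.01 in 1/4 oocytes (exact permutation, adjusted p = 0.133 for both). None of the 16 tests of these measures passed after adjustment. Mean isoform length, weighted by UMIs, was 1892 ± 20.0 bases in intact oocytes, 1880 ± 18.4 in 1/2 oocytes and 1871 ± 21.6 in 1/4 oocytes.

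RNA of mitochondria and of ribosomal protein genes was less even between columns than isoform number. Mitochondrially encoded genes took 6.83% ± 1.05 of UMIs in intact oocytes (5.78% to 8.26%), 7.84% ± 0.361 in 1/2 oocytes and 7.65% ± 1.32 in 1/4 oocytes (exact permutation, adjusted p = 0.133 and 0.357). Here the intact oocytes were the more variable group against 1/2 oocytes, and the highest-level mt-Co1, mt-Co2 and mt-Co3 had CVs beyond counting error of 16.9%, 17.2% and 15.5% in intact oocytes and 5.07%, 9.17% and 7.34% in 1/2 oocytes. In 1/4 oocyte 1 the share was 10.0%. There 6 of the 13 mitochondrial genes were at their highest of all columns, with mt-Nd1 at 14258 CPM (6070 to 7425 in the other 1/4 oocytes) and mt-Co1 at 32216, while mt-Co2, mt-Atp6 and mt-Nd6 were at 1.04, 1.04 and 0.957 times the median of the other 1/4 oocytes.

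Ribosomal protein genes took 0.179% ± 0.0220 of UMIs in intact oocytes, 0.278% ± 0.0765 in 1/2 oocytes and 0.278% ± 0.133 in 1/4 oocytes (exact permutation, adjusted p = 0.133 and 0.187). 1/4 oocyte 1 stood at 0.548% and 1/2 oocytes 2 and 4 at 0.383% and 0.359%, against 0.153% to 0.205% in intact oocytes. 1/4 oocyte 1 is also the column with most alpha-globin UMIs and with the Krt8 UMIs, though no other listed blood cell marker was seen in it. 1/2 oocyte 2 is that with Amhr2 and Gja1 UMIs and the highest share of ISM isoforms (37.2%, the other 1/2 oocytes 32.0% to 33.5%). Whether RNA of other cells plays a part in the spread of these columns was not tested.

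**Figure D4:**
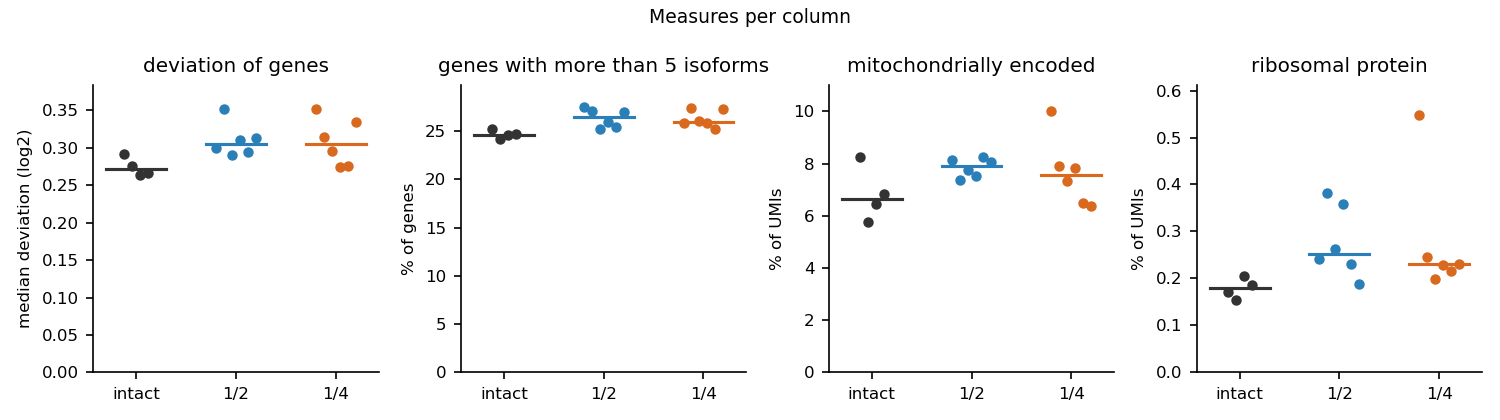
Values per column of the median deviation of genes from their group mean (log2 scale), the percent of genes with more than 5 isoforms after thinning, and the percents of UMIs on mitochondrially encoded and on ribosomal protein genes, with 1 point per column and a bar at the group median. 1/4 oocyte 1 is the highest point of the last 2 panels (10.0% and 0.548%). Intact oocytes overlap both kinds of part in every panel but that of genes with more than 5 isoforms, where in this 1 draw they lie just below all parts.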

How the data were processed

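Single oocytes and parts were amplified on 10x gel beads, and cDNA pooled in proportion to amplification cycles was sequenced on the PacBio platform. The authors deposited UMI counts per isoform, whole numbers with no normalization. They aligned full-length reads to mm10 with minimap2, using read orientation and no secondary alignments, collapsed them with cDNA_Cupcake and classified them with SQANTI3. UMIs of near-identical genes (Obox2, Oog1, ribosomal proteins, Hba-a1 with Hba-a2) may be split between copies. Of the 49271 isoforms, 6494 had a UMI in 1 column only. Runs 1 to 3 were not used here.

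Isoforms were summed to genes. Levels were tested with edgeR 4.0.16 (TMM, quasi-likelihood, at least 5 UMIs in at least 4 columns) and variability with limma 3.58.1 on absolute deviations of log2(thinned UMIs + 1), both with Benjamini-Hochberg adjustment over all features. Measures per column were compared by two-sided exact permutation tests. Alternatives were DESeq2 1.42.0, other filters, pseudocounts and draws, and leaving out columns. The logarithm of the deviations, the median deviation per column and the CV at full depth were chosen after seeing the data. Tests were tried on simulated counts. Named features were the called ones, the extremes of spread, constancy and level, the extremes of the lists, and genes the study names for isoforms. Hba-a1, Hba-a2, Krt8, Amhr2, Gja1 and Cyp19a1 were named after their values were seen. The members and lists were chosen with earlier results of these data known. Gene positions are from GENCODE M21 (mm10) and isoform positions from the deposited annotation. Depth was 129744 to 289774 UMIs per column, and counting error limits the spread that can be seen in features of low count. 1 gene that the rule names is not reported here.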

Additional observations from a re-analysis of the deposited data

Results flagged for a closer look

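Among 330 groups of values looked at, 29 held a column far from the others of its group, where chance gives about 1 in 20. Many of these features were named because their spread was extreme, so more such columns than chance gives are built into the choice. The values are in CPM unless a percent is named, and no explanation was weighed. In intact oocytes these were Blm in oocyte 2 (214), Gatad2a in oocyte 4 (170), Ift43 in oocyte 1 (461), Platr30 in oocyte 2 (307), Slbp in oocyte 2 (9518), Srpk1 in oocyte 2 (11.0), the Ubl5 isoform in oocyte 3 (174) and the Mdm2 isoform in oocyte 1 (53.2).

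Among 1/2 oocytes, 1/2 oocyte 2 had 40.5% of UMIs on FSM and 37.2% on ISM isoforms and Cnot7 at 1832. Blm was at 396 in 1/2 oocyte 1, Oosp2 at 448 in 1/2 oocyte 4, Sf3b2 at 254 and the Fam8a1 isoform at 331 in 1/2 oocyte 6, H1foo isoform PB.63789.260 at 130 in 1/2 oocyte 5, the Ubl5 isoform at 193 in 1/2 oocyte 3 and the Mthfsl isoform at 23.1 in 1/2 oocyte 6.

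Among 1/4 oocytes, 1/4 oocyte 1 had 0.548% of UMIs on ribosomal protein genes, Zbed3 at 10155, mt-Nd1 at 14258, mt-Nd3 at 470, the Zbed3 isoform at 136 and the Eny2 isoform at 115. 1/4 oocyte 6 had Baz1a at 335, Me1 at 474, Oosp2 at 430 and the Ifitm3 isoform at 117, and 1/4 oocyte 2 had C2cd5 at 552.

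The mt-Nd6 isoform differed between both kinds of part, with 1/4 oocytes 1.26 below 1/2 oocytes on the log2 scale (-1.26, edgeR adjusted p = 0.000469).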

How the results depend on the processing

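Counts of called genes and isoforms depended on the setting, and the cause was not tested. The study's methods give no test for split oocytes. Between embryonic stages they use an unadjusted p under 0.01 and a log2 fold over 1. With those limits, levels gave 27 of 4010 genes in 1/2 oocytes and 27 in 1/4 oocytes against intact oocytes. For 1/4 oocytes against 1/2 oocytes there were 22 genes. Isoforms numbered 88, 115 and 65 of 11965 in the same order. These counts are not adjusted for the number of features tested. DESeq2 gave 6 genes in 1/4 oocytes against intact oocytes, 2 in 1/4 oocytes against 1/2 oocytes, and 0 isoforms in 1/2 oocytes or 1/4 oocytes against intact oocytes. With no filter there were 3 genes in 1/4 oocytes against 1/2 oocytes and 1 isoform in 1/4 oocytes against intact oocytes. The variability calls below count features more variable and less variable in parts together. In the main fit, over 2698 genes and 5117 isoforms, all calls were of features less variable in parts. Variability calls for genes (parts, 1/2 oocytes, 1/4 oocytes) were 0, 0 and 0 with no thinning, with the logarithm of the deviations and at a mean of at least 20, 7, 4 and 5 with squared deviations, 6 in parts with a pseudocount of 0.5, and 0 in 1/2 oocytes and 1/4 oocytes in another draw. For isoforms they were 0, 0 and 0 with no thinning and at a mean of at least 20, 6, 4 and 5 with the logarithm, 3 in parts with squared deviations, 2 in parts and 1/2 oocytes with a pseudocount of 0.5, and 2, 0 and 1 in another draw.

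Leaving out 1 column gave 0 to 2 genes for levels in 1/4 oocytes against 1/2 oocytes, 0 to 5, 0 to 6 and 0 to 7 isoforms (1/2 oocytes, 1/4 oocytes, 1/4 oocytes against 1/2 oocytes), 0 to 6, 0 to 6 and 0 to 4 genes for variability, and 1 to 18, 1 to 8 and 0 to 4 isoforms, with 18 without intact oocyte 4. These counts, too, hold calls in both directions together. Without thinning, isoforms per column reversed (-1443 in 1/2 oocytes, -643 in 1/4 oocytes against intact oocytes), since totals then differ. The median deviation of genes in 1/2 oocytes ranged from 0.0228 to 0.0496 above intact oocytes (0.0435 and past the threshold without 1/2 oocyte 3), and that of isoforms in 1/4 oocytes from -0.00148, without 1/4 oocyte 1, to 0.0132. Of 200 values of measures per column with 1 column left out, 198 kept direction and side of the threshold. No paired analysis was possible because the column numbers do not tie parts to oocytes.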
